A study of Xenopus laevis with 6 samples.

Results

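The genes described here encode potassium, sodium and calcium channels of *Xenopus laevis* brain. They were taken by symbol, as every gene on the array whose name begins with kcn, scn followed by a digit, cacna, cacnb, cacng or hcn followed by a digit. This gave 44 genes from 54 probe sets, of 11303 named genes and 32539 probe sets without controls, and no hcn gene was among them. *X. laevis* carries a long (L) and a short (S) subgenome, and L and S copies were kept as separate genes. A gene with several probe sets is represented by the one with the highest mean over all arrays, and its other probe sets are given where one of them changed. The symbols kcnj and kcnk also brought in 5 inwardly rectifying and 8 tandem-pore potassium channels, which in mammals are not opened by the voltage sensor that gives the other families their name.

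Voltage-gated channels open when the membrane is depolarised. Sodium channels carry the upstroke of the action potential, calcium channels couple it to transmitter and hormone release, and potassium channels end it and set the interval to the next one. Each pore-forming subunit works with accessory subunits that set how much of it reaches the membrane and how fast it opens or inactivates, while the tandem-pore potassium channels carry the leak current that holds the resting potential.

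The data come from 6 arrays of the Affymetrix *Xenopus laevis* Genome 2.0 type. Tadpoles at Nieuwkoop–Faber (NF) stage 54, an early premetamorphic stage, received an injection into the brain ventricle (i.c.v.) of 0.6% saline (saline arrays 1, 2 and 3) or of recombinant *Xenopus* leptin at 20 ng/g body weight (rxLeptin arrays 4, 5 and 6), and tissue was taken 2 h later. Each array held RNA pooled from 3 brains, so that p-values measure the spread between pools and not between animals. The labels name preoptic area, hypothalamus and pituitary together. The question put to the channel genes was whether their mRNA levels differed between saline and rxLeptin pools.

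All values are log2 signals made by the authors with the Robust Multichip Average (RMA) method, so a difference of 1 is a doubling, and signals of different probe sets cannot be set against each other as amounts of RNA. Tests were run with limma on the 16269 probe sets whose interquartile range over the arrays lay above the median of 0.173, and each array was given a weight estimated from its scatter. A gene was called at an adjusted p under 0.05 after Benjamini-Hochberg correction over all tested probe sets. The limma fold change is therefore a weighted one, and the plain difference of group means is given beside it for each called gene. Saline arrays 1 to 3 received weights of 0.30, 3.96 and 0.27, and rxLeptin arrays 4 to 6 received 1.20, 4.27 and 0.60. Saline array 2 and rxLeptin array 5 thus counted most. These weights came from an estimation that warned of not having converged, and they changed with the processing. The weight of saline array 2 was 0.32 after the array medians were made equal, and 16.81 with the variance filter set at the upper quartile. The difference between the 3′ and middle probe sets of the actin control, a sign of RNA degradation, was 2.83, 1.61 and 0.77 on the saline arrays and between 0.60 and 0.67 on the rxLeptin arrays, with saline arrays 1 and 2 above the rest. The difference between the 3′ and 5′ probe sets of the gapdh control was 2.71, 1.18 and 1.02 in saline and 1.11, 0.94 and 0.93 after rxLeptin, where saline array 1 alone stood apart. Defining neuronal, hypothalamic and pituitary transcripts were present, with mean log2 signals of 14.08 for *tubb3.L*, 10.04 for *nkx2-1.L* and 13.57 for *pomc.L*.

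Most channel genes gave low signals. Their mean log2 signals ran from 3.69 to 12.29 with a median of 5.68, against a median of 8.71 for all named genes. When all probe sets were ordered by mean signal and divided into 4 classes of equal size, 15 of the 44 channel genes lay in the lowest class, 14 in the next, 8 in the one above it and 7 in the highest. The highest means belonged to *scn2b.L* (12.29) and *scn3b.L* (10.84), both beta subunits of sodium channels, and to *kcnip1.L* (10.67), a calcium-binding subunit of the Kv4 family. The lowest belonged to *kcnj1.L* (3.69), an inward rectifier of mammalian kidney, *kcne1.L* (3.74), a small subunit that partners *kcnq1* in mammalian heart, and *cacna1s.S* (3.84), the calcium channel pore of skeletal muscle.

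Of the 44 channel genes, 20 passed the variance filter and were tested (45.5%, against 47.5% of all named genes), and the other 24 were described by their values alone. After rxLeptin 2 of the 20 rose and 5 fell, while 13 were not called. The 2 that rose made up 10% of those tested, where 23.1% of all tested probe sets rose, and the 5 that fell made up 25%, where 23.1% of all tested probe sets fell. One of these falls, that of *kcne5.L*, was met by a rise in the other probe set of the gene, and without it 4 of the 20 fell, or 20%. The share that fell was thus close to that of all tested probe sets, and the share that rose was below it, over few genes. No tested channel gene had all rxLeptin arrays above all saline arrays in its representative probe set, an arrangement found in 16.9% of all tested probe sets. The reverse arrangement, all rxLeptin arrays below all saline arrays, was found in 6 of the 20, or 30%, beside 17.3% of all tested probe sets. These 6 include *kcne5.L*, whose other probe set had all rxLeptin arrays above all saline arrays. The median weighted log2 fold change of the 20 was −0.13, and that of all tested probe sets was −0.05. Without the variance filter the median of all 44 turned to 0.01.

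**Figure D1:**
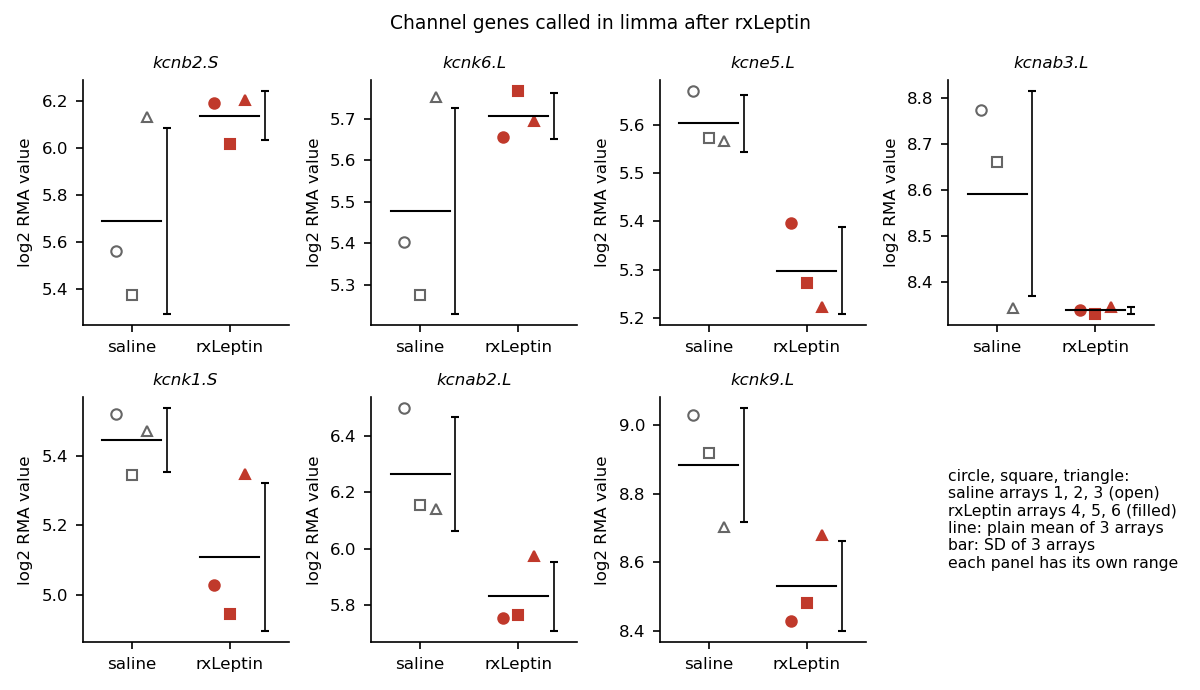
Each panel is 1 of the 7 called channel genes, and the y axis is its log2 RMA value on its own range, with open symbols for saline arrays 1, 2 and 3 and filled symbols for rxLeptin arrays 4, 5 and 6 (circle, square, triangle), a line at the plain mean and a bar for the SD of 3 arrays. The groups are free of overlap for *kcne5.L*, *kcnab2.L* and *kcnk9.L*, and the saline triangle lies at rxLeptin level for *kcnb2.S*, *kcnk6.L* and *kcnab3.L*.

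The calls changed with the array weights and with the arrays left out. Without array weights none of the channel genes and none of all probe sets passed limma at the adjusted p. In that fit 4 of the 20 tested channel genes and 4262 of the 16269 tested probe sets had an unadjusted p under 0.05. Leaving out saline array 1 or saline array 2 likewise left 0 calls, while 2 channel genes stayed called without saline array 3 (*kcnb2.S* and *kcnab2.L*) and 2 without rxLeptin array 5 (*kcnb2.S* and *kcnk6.L*). Leaving out an array also made the weights of the 2 others in its group equal, 0.72 each in saline without saline array 1. The part of the omitted pool alone was thus not tested. With the actin difference of each array as a covariate there were also 0 calls. None of the 20 tested channel genes had an unadjusted limma p under 0.05 in that fit, beside 847 of the 16269 tested probe sets. The actin difference was larger on every saline array than on every rxLeptin array, so treatment and degradation cannot be told apart there. Without rxLeptin array 4, 5 of the 7 stayed called. No called channel gene changed its direction under any of these settings in which it was tested. The variance filter drops genes with little spread left, so this covers only differences that remained. *kcnk6.L* and *kcnab3.L* did not pass it without saline array 1 or 2, and without both arrays *kcnb2.S* did not pass either. *kcnk1.S* did not pass it without rxLeptin array 4 or 5. In *kcnk6.L*, saline array 3 (5.75) lay above rxLeptin arrays 4 and 6 (5.66 and 5.69).

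**Figure D2:**
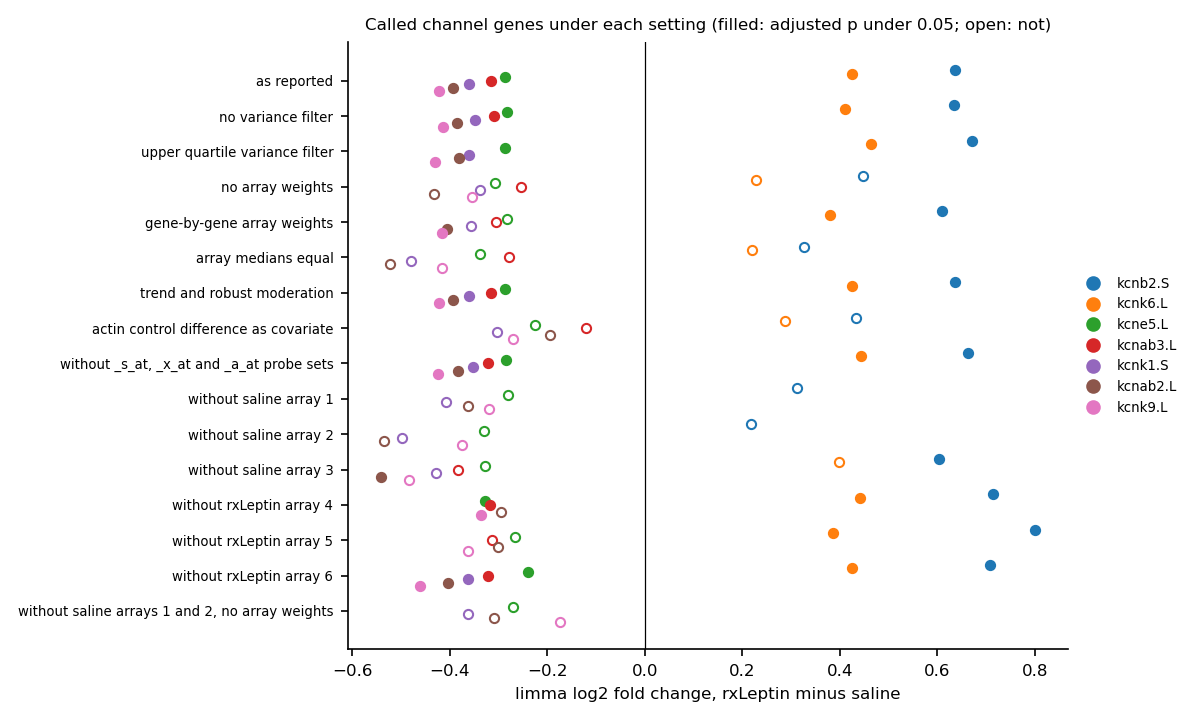
The x axis is the limma log2 fold change (rxLeptin minus saline) of the 7 called channel genes, 1 colour a gene, and each row is a setting, with filled circles at an adjusted p under 0.05, open circles otherwise and no circle where the gene did not pass the variance filter. Every circle shown keeps its side of 0. None is filled without array weights, with equal array medians, with the actin covariate, without saline array 1 or without saline array 2. With both of these saline arrays left out, *kcnb2.S*, *kcnk6.L* and *kcnab3.L* have no circle, so their direction there is not shown.

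Among the 9 pore-forming subunits of voltage-gated potassium channels, 3 were tested and 1 rose. *kcnb2.S* encodes a delayed rectifier of the Kv2 family, which in mammalian neurons limits firing during long depolarisations. Its log2 values were 5.56, 5.38 and 6.13 on saline arrays 1 to 3 and 6.19, 6.02 and 6.21 on rxLeptin arrays 4 to 6. Saline array 3 lay among the rxLeptin arrays, and saline arrays 1 and 2 lay below all of them. The weighted log2 fold change was 0.64 (standard error 0.12, adjusted p = 0.00171), and the plain difference was 0.45. Without saline array 1 the value was 0.31 (adjusted p = 0.448), and without saline array 2 it was 0.22 (adjusted p = 0.618).

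Another gene annotated as a copy of the same channel, *kcnb2-a*, was at 5.10, 4.86 and 4.79 on the saline arrays and at 4.77, 4.59 and 4.65 on the rxLeptin arrays, all of them lower than any saline array by a small margin, and it did not pass the filter. *kcnb2-a* had no match in the table of current gene names, so whether it is the L copy was not known here. The difference between *kcnb2.S* and *kcnb2-a* within an array was 0.46, 0.52 and 1.35 in saline and 1.42, 1.43 and 1.56 after rxLeptin. It was higher on every rxLeptin array, by 0.69 on average, with an exact two-sided permutation p of 0.1, the smallest that 3 against 3 arrays can give, and an adjusted p of 0.167 over the 5 pairs compared. The pair was picked after its values had been seen.

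The remaining pore-forming genes showed no call. *kcnd3.L*, a Kv4 channel of the rapidly inactivating A-type current, had values of 9.88, 10.38 and 9.94 in saline and 10.32, 10.15 and 10.32 after rxLeptin. Saline array 2 was the highest of the 6 and carried most of the saline weight, so its weighted log2 fold change was −0.12 (adjusted p = 0.374) although the plain difference was 0.19. *kcna1.S*, a Shaker family channel of axons, was at 6.57, 6.81 and 6.78 in saline and 6.95, 6.87 and 6.58 after rxLeptin, with the groups interleaved (0.06, standard error 0.10, adjusted p = 0.622). *kcna4.S*, another A-type Shaker channel, was not tested in its brighter probe set, where all rxLeptin arrays (6.96, 6.95 and 7.002) lay above the saline arrays (6.72, 6.93 and 6.88). In its dimmer probe set the weighted log2 fold change was −0.27 (adjusted p = 0.067), so the 2 probe sets differed in sign. *kcnq1.L*, whose channel serves epithelia and heart in mammals, owed its spread to saline array 1, at 6.09, with the other arrays between 5.38 and 5.51.

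Among the 8 accessory subunits of voltage-gated potassium channels, 6 were tested, 3 fell and 0 rose. All 6 had weighted log2 fold changes below 0 in their representative probe set, with a median of −0.29 beside −0.05 for all tested probe sets. In 4 of the 6 every rxLeptin array was below every saline array. Over all tested probe sets 23.1% fell and 17.3% had every rxLeptin array below. Without *kcne5.L*, whose probe sets went in opposite directions, 2 of 5 fell and 3 of 5 were free of overlap. The tandem-pore potassium channels likewise had 2 falls among 5 tested. The accessory subunits were singled out as a group after their values had been seen, and they got no test of their own.

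*kcnab2.L* and *kcnab3.L* encode cytoplasmic beta subunits, which bind Shaker family channels and, in mammals, speed their inactivation or raise their number at the membrane. *kcnab2.L* was at 6.50, 6.16 and 6.14 in saline and at 5.75, 5.77 and 5.97 after rxLeptin. Every rxLeptin array was lower than every saline array, and the gap between the groups was smaller than the range within either. The weighted log2 fold change was −0.39 (standard error 0.10, adjusted p = 0.00852), and the plain difference was −0.43. Its 2 dimmer probe sets overlapped between the groups and were not called, with weighted log2 fold changes of 0.10 (adjusted p = 0.429) and −0.12 (adjusted p = 0.396), so the fall was seen in 1 of 3 probe sets.

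*kcnab3.L* was at 8.77, 8.66 and 8.34 in saline and at 8.34, 8.33 and 8.35 after rxLeptin. The rxLeptin arrays were nearly equal, with an SD of 0.008, and saline array 3 lay at their level, so that saline arrays 1 and 2 alone stood above. The weighted log2 fold change was −0.32 (standard error 0.09, adjusted p = 0.019), and the plain difference was −0.25. Without saline array 1 or 2 it no longer passed the variance filter, and without saline array 3 its adjusted p was 0.0744.

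*kcne5.L* encodes a small membrane subunit of the kcne family, whose mammalian counterpart dampens the current of *kcnq1* channels. In its brighter probe set it was at 5.67, 5.57 and 5.57 in saline and at 5.40, 5.27 and 5.22 after rxLeptin. The groups did not overlap, and the weighted log2 fold change was −0.29 (standard error 0.09, adjusted p = 0.0263) beside a plain difference of −0.31. Its dimmer probe set moved the other way, from 4.73, 4.79 and 4.71 in saline to 4.85, 5.25 and 5.05 after rxLeptin, again without overlap, and its weighted log2 fold change was 0.37 (standard error 0.11, adjusted p = 0.0214). Within an array the brighter minus the dimmer probe set was 0.94, 0.78 and 0.86 in saline and 0.55, 0.02 and 0.17 after rxLeptin. It changed by −0.61, with an exact permutation p of 0.1 (0.167 adjusted over the 5 pairs). This pair was picked after its values had been seen. With the probe sets already apart in opposite directions no larger p was possible, so the p adds nothing to the values. The direction of *kcne5.L* thus depended on the probe set, and no single direction can be given for it.

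*kcne3.S*, another kcne subunit, was at 6.91, 6.38 and 6.37 in saline and at 5.81, 6.21 and 6.20 after rxLeptin. All rxLeptin arrays were lower, with the extremes on saline array 1 and rxLeptin array 4, which carried less weight than saline array 2 and rxLeptin array 5. Its plain difference of −0.48 was the largest fall among the 44 genes, while the weighted value was −0.29 (standard error 0.12) and was not called (adjusted p = 0.0692). Without rxLeptin array 6 it was called, at −0.39 (adjusted p = 0.0117).

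The kcnip genes encode calcium-binding proteins that bind Kv4 channels and increase their A-type current. *kcnip1.L* was at 10.91, 10.74 and 10.71 in saline and at 10.63, 10.53 and 10.49 after rxLeptin. The groups did not overlap, but the weighted log2 fold change of −0.20 (standard error 0.09) was not called (adjusted p = 0.0855). *kcnip2.S* was at 10.67, 10.45 and 10.77 in saline and at 10.27, 10.19 and 10.48 after rxLeptin, where rxLeptin array 6 just passed saline array 2 (−0.24, standard error 0.10, adjusted p = 0.0681). *kcnip4.L* was not tested, and its values from 7.17 to 7.60 were mixed between the groups. The last accessory gene, *kcne1.L*, was not tested either, and its values from 3.67 to 3.85 overlapped between the groups.

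**Figure D3:**
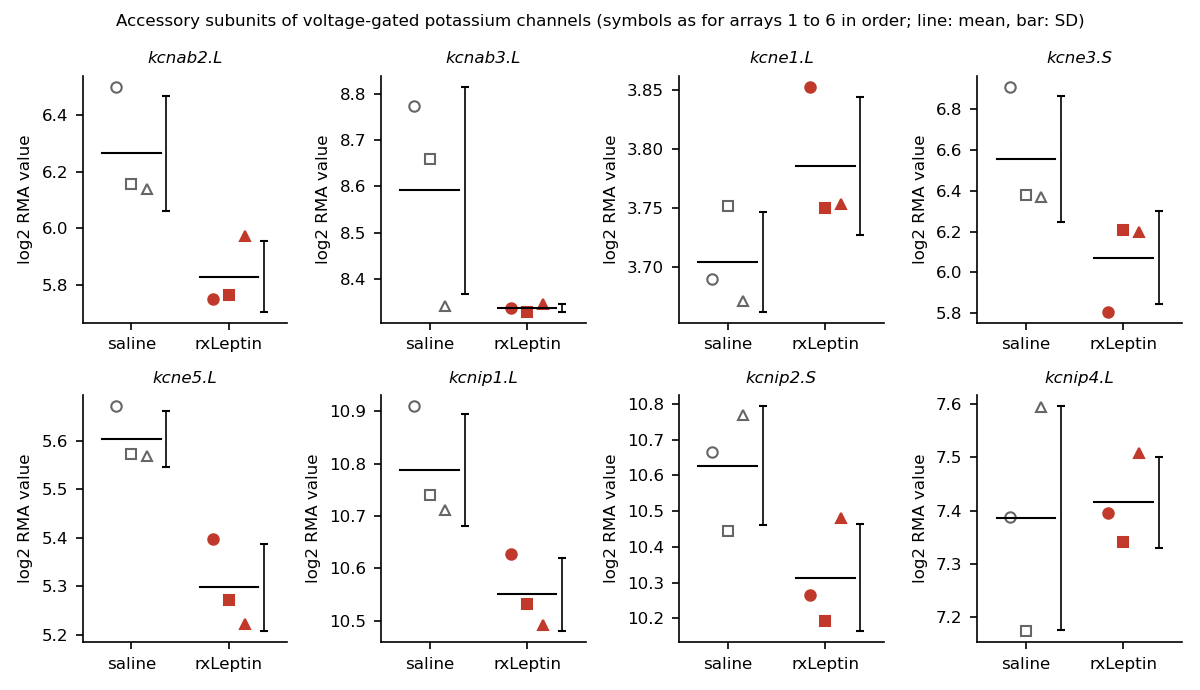
Each panel is 1 accessory subunit gene, and the y axis is its log2 RMA value on its own range, with open symbols for saline arrays 1, 2 and 3 and filled symbols for rxLeptin arrays 4, 5 and 6 (circle, square, triangle), a line at the plain mean and a bar for the SD of 3 arrays. Filled symbols lie below all open ones for *kcnab2.L*, *kcne3.S*, *kcne5.L* and *kcnip1.L*.

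Of the 8 tandem-pore potassium channels, 5 were tested, 1 rose and 2 fell. *kcnk9.L* encodes a leak channel that in mammals closes as the outside turns acidic. It was at 9.03, 8.92 and 8.70 in saline and at 8.43, 8.48 and 8.68 after rxLeptin. The groups did not overlap, although saline array 3 and rxLeptin array 6 differed by little, and the weighted log2 fold change was −0.42 (standard error 0.10, adjusted p = 0.00531), the largest weighted fall among the called channel genes. The plain difference was −0.35. Leaving out 1 array ended the call at a value of −0.32 without saline array 1 (adjusted p = 0.306), −0.37 without saline array 2 (0.348), −0.48 without saline array 3 (0.052) and −0.36 without rxLeptin array 5 (0.0548).

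*kcnk1* and *kcnk6* encode weakly conducting leak channels of a common subfamily, and for both the L and the S copy were measured. *kcnk1.S* was at 5.52, 5.34 and 5.47 in saline and at 5.03, 4.95 and 5.35 after rxLeptin. Only rxLeptin array 6 reached the saline range, and the gene fell by 0.36 on the log2 scale (standard error 0.11, adjusted p = 0.0167), with a plain difference of −0.34. *kcnk1.L* was at 7.58, 7.56 and 7.85 in saline and at 7.54, 7.66 and 7.88 after rxLeptin, fully interleaved (0.08, standard error 0.10, adjusted p = 0.505). The L minus S difference was 2.06, 2.21 and 2.38 in saline and 2.51, 2.71 and 2.53 after rxLeptin. It was larger on every rxLeptin array, by 0.37 on average, at an exact permutation p of 0.1 (0.167 adjusted over the 5 pairs), which with 3 against 3 arrays could not have been smaller.

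*kcnk6.L* was at 5.40, 5.27 and 5.75 in saline and at 5.66, 5.77 and 5.69 after rxLeptin. Saline array 3 lay within the rxLeptin range. The weighted log2 fold change was 0.43 (standard error 0.10, adjusted p = 0.00645), and the plain difference was 0.23. *kcnk6.S* was at 5.70, 5.62 and 5.79 in saline and at 6.05, 5.53 and 5.55 after rxLeptin, where array 4 was the highest and the others were the lowest of the 6 (0.00, standard error 0.13, adjusted p = 0.976). The L minus S difference changed by 0.22 between the groups, with an exact permutation p of 0.4 (0.5 adjusted). Without saline array 1 or 2 *kcnk6.L* no longer passed the variance filter, and without saline array 3 its adjusted p was 0.0752.

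**Figure D4:**
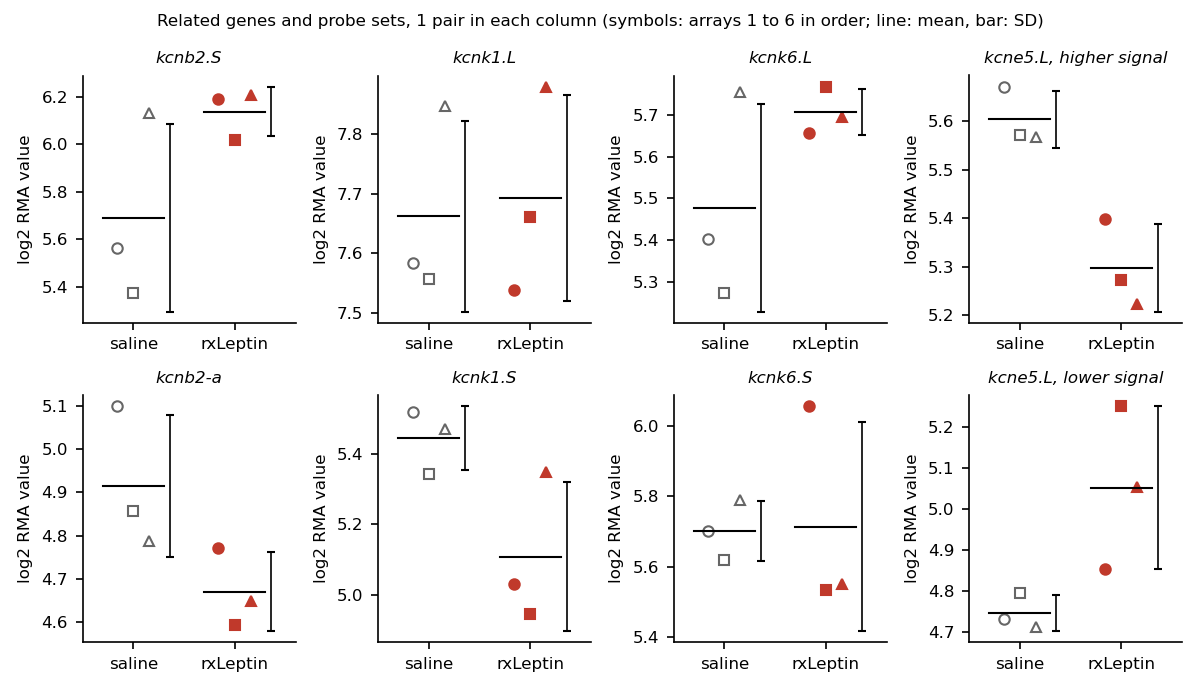
Each column is a pair of related genes or probe sets, and each y axis is the log2 RMA value on its own range, with open symbols for saline arrays 1, 2 and 3, filled symbols for rxLeptin arrays 4, 5 and 6, a line at the mean and a bar for the SD of 3 arrays. The plain means of the upper and lower panels move in opposite directions for kcnb2, for kcnk1 and for the 2 probe sets of *kcne5.L*. For *kcnk1.L* the plain difference is only 0.03, with the groups interleaved. The groups are free of overlap only for *kcnb2-a* and the 2 probe sets of *kcne5.L*.

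The other tandem-pore genes were not tested. *kcnk10.L*, a leak channel that in mammals responds to stretch and lipids, was at 7.997, 8.45 and 7.97 in saline and at 8.0004, 7.83 and 7.41 after rxLeptin. Its plain difference of −0.39 was the largest among the 24 untested genes, with rxLeptin array 4 at the level of saline arrays 1 and 3. It had an interquartile range under the filter's limit, and without that filter it fell by 0.56 on the log2 scale, at an adjusted p of 0.0189. That value leaned on saline array 2, the highest of the 6, which carried most of the saline weight. The plain difference without saline array 2 was −0.23.

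Both genes of the calcium-activated channel were tested and neither was called. *kcnma1.L*, the large-conductance pore that opens with calcium and voltage together, was at 9.21, 9.43 and 9.40 in saline and at 9.65, 9.64 and 9.22 after rxLeptin, with rxLeptin array 6 at the level of saline array 1 (0.19, standard error 0.11, adjusted p = 0.15). *kcnmb3.S*, one of its beta subunits, was at 7.95, 8.02 and 8.16 in saline and at 7.72, 7.95 and 7.78 after rxLeptin, all of them lower, although rxLeptin array 5 nearly met saline array 1 (−0.14, standard error 0.10, adjusted p = 0.247). None of the 5 inward rectifiers passed the filter, and 4 of them gave mean log2 signals near 4. The exception was *kcnj10.L*, the inward rectifier of mammalian glia, whose values from 8.72 to 8.95 overlapped between the groups. In the Xenopus_laevis_v10.1 table *kcnj5.L* and *kcnj1.L* are neighbours with 0 protein-coding genes between them, and both were among the lowest signals.

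Sodium channels were represented by 1 pore and 3 beta subunits, and none was called. *scn1a.S*, a pore of neuronal sodium channels, was at 5.22, 5.59 and 5.48 in saline and at 5.59, 5.31 and 5.22 after rxLeptin, with no order between the groups (−0.20, standard error 0.11, adjusted p = 0.137). The beta subunits are single-pass proteins that modulate the pore and bind neighbouring cells. *scn3b.L* was at 10.57, 10.63 and 11.11 in saline and at 10.85, 10.86 and 11.00 after rxLeptin, where saline array 3 was the highest of the 6 (0.22, standard error 0.10, adjusted p = 0.0906). *scn2b.L* and *scn4b.L*, neighbours with 0 protein-coding genes between them, were not tested, and their plain differences were −0.01 and 0.22. The values of *scn2b.L*, the brightest channel gene, stayed between 12.19 and 12.38.

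Calcium channels were represented by 2 pores and 6 accessory subunits, of which 2 were tested and 0 were called. *cacna1a.S*, the pore of the P/Q-type channel of nerve terminals, was at 5.24, 5.05 and 4.98 in saline and at 5.08, 4.91 and 5.02 after rxLeptin and was not tested in this brighter probe set. Its dimmer probe set fell, from 4.50, 4.37 and 4.05 in saline to 4.09, 4.03 and 3.84 after rxLeptin, with saline array 3 inside the rxLeptin range (−0.33, standard error 0.10, adjusted p = 0.018). Both probe sets, with mean log2 signals of 5.05 and 4.15, lay in the lowest of the 4 signal classes. *cacnb1.S*, a cytoplasmic beta subunit of muscle and brain, had the largest plain difference of all 44 genes, 0.51, and owed it to saline array 1, at 4.11 where the other arrays lay between 5.02 and 5.56. Its weighted log2 fold change was 0.23 (standard error 0.15, adjusted p = 0.203).

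*cacna2d3.S*, an alpha2delta subunit that carries the pore to the membrane, was at 5.05, 4.76 and 4.93 in saline and at 4.56, 4.89 and 4.70 after rxLeptin (0.02, standard error 0.11, adjusted p = 0.893), against a plain difference of −0.20. The L and S copies of *cacnb3*, another beta subunit, were both under 4.5 in mean signal, and the exact permutation p for a change in their difference was 0.9. *cacng5.L*, related to the subunits that also escort glutamate receptors, was bright at 10.06, 10.21 and 10.47 in saline and 10.31, 10.42 and 10.36 after rxLeptin, with all rxLeptin arrays inside the saline range. *cacng1.L* and *cacna1s.S*, parts of the skeletal muscle channel in mammals, were at mean log2 signals of 3.98 and 3.84, near the bottom of the array.

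In 3 of the 7 called channel genes (42.9%) saline array 3 took a value between the lowest and the highest rxLeptin array, beside 34.4% of all called probe sets. The 3 were *kcnb2.S*, *kcnk6.L* and *kcnab3.L*. The groups were free of overlap in 3 of the 7 (42.9%), beside 55.4% of all called probe sets.

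Related genes from other families were read from the same fit, with the background of 23.1% rising and 23.1% falling. None of 4 tested partners of the channels (13 measured, such as the contactin *cntn1* and the fibroblast growth factor homologs) and none of 7 tested calmodulin-dependent kinases and calcium-binding proteins (17 measured) was called. Of 9 tested genes of calcium stores, pumps and exchangers, 2 rose and 2 fell. The larger rise was in *slc8a1.S*, the plasma membrane sodium-calcium exchanger, from 5.98, 6.26 and 6.48 in saline to 6.91, 6.85 and 6.58 after rxLeptin without overlap (0.57, adjusted p = 0.00141). Of 4 tested genes of the sodium-potassium pump, 2 rose, and *atp1b1.S*, its beta subunit, went from 11.44, 11.64 and 12.07 in saline to 12.08, 12.05 and 12.22 after rxLeptin, with saline array 3 inside the rxLeptin range (0.42, adjusted p = 0.0069). Of 11 tested chloride and transient receptor potential channels 1 rose, *clic1.S* (0.90, adjusted p = 0.00058, with saline array 3 again inside the rxLeptin range), and 2 fell.

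Markers of some cell types moved with the treatment too, and in bulk tissue fewer cells of a type and less RNA per cell cannot be told apart. Over all tested probe sets 23.1% rose and 23.1% fell. Of 8 tested neuronal markers (16 measured) 5 rose and 0 fell. The mean level of all 16 was 11.54, 11.83 and 11.87 on saline arrays 1 to 3 and 11.89 to 11.98 after rxLeptin. The groups did not overlap but were close at the inner ends. Saline array 1, the lowest, also had the largest 3′ differences of the actin and gapdh controls. Of 12 tested skeletal muscle markers (18 measured) 9 fell and 0 rose. The mean level of all 18 went from a range of 6.72 to 6.84 in saline to one of 6.52 to 6.60 after rxLeptin, also without overlap. Among the falls, *myh4.L* and *myh8.L* overlapped between the groups. Their weighted log2 fold changes were −0.59 and −0.63, beside plain differences of 0.12 and −0.02. Of 6 tested pituitary markers (11 measured) 0 rose and 2 fell, and the 11 had mean levels of 9.61 to 9.81 in saline, 9.67 and 9.58 on rxLeptin arrays 4 and 5, and 9.09 on rxLeptin array 6. Of the 7 hypothalamic and preoptic markers 1 was tested and it was not called, and their mean level was 9.19 to 9.35 in saline and 9.07 to 9.17 after rxLeptin, close to each other at the inner ends. The part of these shifts in the changes of channel genes was not tested.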

How the data were processed

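Gene expression was measured in 3 saline and 3 rxLeptin pools of 3 tadpole brains, 1 array a pool. The deposited values are on the log2 scale and were computed by the authors with RMA (affy package). Versions are not given in the submitters' processing notes, which name RMA, affy and limma. Background correction and scaling between arrays are as deposited.

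The 96 control probe sets and those at or below the median interquartile range were removed, and limma 3.58.1 in R 4.3.3 was fitted with treatment as its only term, array weights from the default call (which warned that it had not converged) and eBayes. Adjusted p-values are limma's over 16269 probe sets. Within-array differences of 5 pairs were compared by exact two-sided permutation. The kcnb2 pair and the *kcne5.L* probe sets were picked for this after their values had been seen. Precision is limited by having 3 arrays a group, and arrays have no sequencing depth. The fit was tested on simulated data with known changes. Every simulated array had the same scatter, so the array weights were not checked by it. Python 3.11.15 and matplotlib 3.10.9 were used for tables and figures.

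Members were found by the symbols of the platform annotation. Genes carry the symbols of the Xenopus_laevis_v10.1 gene table, matched by gene identifier, where 53 of the 54 channel probe sets had a match. The other probe set, that of *kcnb2-a*, kept its platform symbol. No sequence is shown, since none was held in the sources used here. The members, gene lists and tests were chosen with earlier results of these data known. Genes named in full are the called ones, L and S pairs with a called copy, the 3 highest and 3 lowest means and genes with a called probe set. Other channel genes were named to give each class its range, some after their values had been seen. Alternatives changed the filter, the weights, the scaling, the moderation, a degradation covariate, the probe sets and the arrays used; the joint omission of saline arrays 1 and 2 was chosen after seeing the data.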

Additional observations from a re-analysis of the deposited data

How the results depend on the processing

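Of the channel genes, 2 rose and 5 fell, and of all probe sets 3759 rose and 3766 fell. Without array weights, with equal array medians and with the actin difference as a covariate, these counts were 0 in both directions. This held for the channel genes and for all probe sets. In these fits limma gave 4262, 3810 and 847 of the 16269 tested probe sets an unadjusted p under 0.05. Gene-by-gene weights gave 2 rises and 2 falls of channel genes, with 2382 rises and 1612 falls of all probe sets. The upper-quartile variance filter gave 4 rises and 6 falls among 11 tested channel genes, with a median log2 fold change of −0.23. It gave 3451 rises and 3194 falls among the 8135 probe sets tested there. Having no variance filter turned the median of the channel genes from −0.13 to 0.011, as all 44 genes entered. Without probe sets that can bind several transcripts, 3 of 20 tested channel genes rose and 8 fell. Of the 14236 probe sets tested there, 3777 rose and 4331 fell. The 8 falls included *kcna4.S*, which was then represented by its dimmer probe set. Requiring groups without overlap as well left 0 rises and 3 falls of channel genes, and 2077 and 2090 of all probe sets. Leaving out 1 array gave 0 to 2 rises and 0 to 6 falls of channel genes, and 0 to 4207 rises and 0 to 4507 falls of all probe sets. Without saline arrays 1 and 2 and without weights, which leaves 1 saline array assumed to vary like the rxLeptin arrays, there were 0 and 0 calls of channel genes and 15 and 26 of all probe sets. The cause of these changes was not tested. The other settings, trend and robust moderation, the representative probe set and updated symbols, kept the counts within 1.5 times. No paired analysis was possible because the array columns carry no replicate numbers that link saline and rxLeptin pools. Of the 44 channel genes, 15 lay in the lowest of 4 equal signal classes, and 2 of those 15 were tested.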
